A study of Physcomitrium patens with 4 samples.

Results

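The light-harvesting antenna genes of the moss Physcomitrella patens are described here over the first days of protoplast culture. They were chosen as the genes whose best Arabidopsis match is described as light harvesting or as a chlorophyll A/B binding protein, and 35 of the 18800 genes in the deposited files met this rule. All 35 also carry the chlorophyll A/B binding protein domain PF00504, an annotation that the rule did not use. By the Arabidopsis gene matched, 11 belong to the photosystem I antenna (LHCA1, LHCA2, LHCA3 and LHCA5), 16 to the major light-harvesting complex II, or LHCII (LHCB2 and LHCB3), and 8 to the minor photosystem II antenna (LHCB4, LHCB5 and LHCB6). No member matched LHCA4 or LHCB1 best, although 6 of the 15 genes matched to LHCB2 carry K08912, the KEGG number for LHCB1, and 4 carry K08913, the number for LHCB2.

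Antenna proteins are encoded in the nucleus, imported into the chloroplast and folded around chlorophyll a, chlorophyll b and carotenoids in the thylakoid membrane, where they pass the energy of absorbed light to the reaction centres. LHCA proteins surround photosystem I, trimers of LHCB1, LHCB2 and LHCB3 form the bulk antenna of photosystem II, and the monomeric LHCB4, LHCB5 and LHCB6 connect these trimers to the photosystem II core. In flowering plants, transcripts of these genes are known to accumulate in the light, under the control of photoreceptors and of signals from the chloroplast, and to be scarce in prolonged darkness.

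Digital gene expression tag profiling was used, which counts 1 short tag next to the last CATG of a transcript, so that the tag count of a gene follows the number of its transcripts and not their length. Wild-type protonemata, the filaments of the young moss gametophyte, taken 6 days after subculture, were digested with Driselase. The protoplasts were either collected at once (0 h) or kept in hormone-free BCDAG liquid medium with mannitol and ammonium tartrate for 24, 48 or 72 h. The cultures stood in darkness up to 24 h and under a daily cycle of light and darkness after that. Time in culture and light therefore changed together and cannot be told apart in any comparison across 24 h. The same holds at 24 h against 0 h, where darkness came together with the first day of culture after digestion. For each time point the RNA was pooled and 1 library made. There were therefore no replicates, all intervals below cover counting error only, and each comparison is one of 2 libraries and not of 2 conditions. In such bulk RNA, fewer cells with active antenna genes and fewer transcripts per cell cannot be told apart.

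The gene counts summed to between 1750184 tags (24 h) and 2445814 tags (72 h) per library. Tags of 33, 33, 34 and 32 members were seen at 0, 24, 48 and 72 h, and 27, 13, 27 and 23 of them had at least 100 tags. Tags that map to more than 1 gene had been removed by the authors, so near-identical copies of this family can be undercounted by an unknown amount. The 72 h library lost a far larger part of its raw tags to adaptor than the others, and 9.65% of its gene tags lay on Pp1s66_172V6, which is not an antenna gene. The part of either in the 72 h values was not tested.

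Antenna transcripts were scarce after the dark day, abundant at 48 h and intermediate at 72 h. The 35 genes together had 27277, 6778, 114830 and 31765 tags at 0, 24, 48 and 72 h. As a share of the gene tags this was 1.21% at 0 h (Wilson 95% interval 1.20 to 1.23), 0.387% at 24 h (0.378 to 0.397), 5.85% at 48 h (5.81 to 5.88) and 1.30% at 72 h (1.28 to 1.31). Antenna genes thus supplied a far larger share of the transcripts at 48 h than in any other library. With library sizes scaled by TMM, the trimmed mean of M-values, the sum was 3.54-fold lower at 24 h than at 0 h (95% exact conditional interval 3.45 to 3.63), 22.1-fold higher at 48 h than at 24 h (21.5 to 22.6) and 3.42-fold lower at 72 h than at 48 h (3.38 to 3.46). Against 0 h it was 6.23-fold higher at 48 h (6.15 to 6.32) and 1.82-fold higher at 72 h (1.79 to 1.85), while over total gene tags the 72 h sum was 1.07-fold higher than that at 0 h. Of the 33 members with at least 10 tags over the 4 libraries, the highest scaled level lay in the 48 h library for 19, in the 0 h library for 8, in the 72 h library for 6 and in the 24 h library for 0, and the lowest in the 24 h library for 27.

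**Figure D1:**
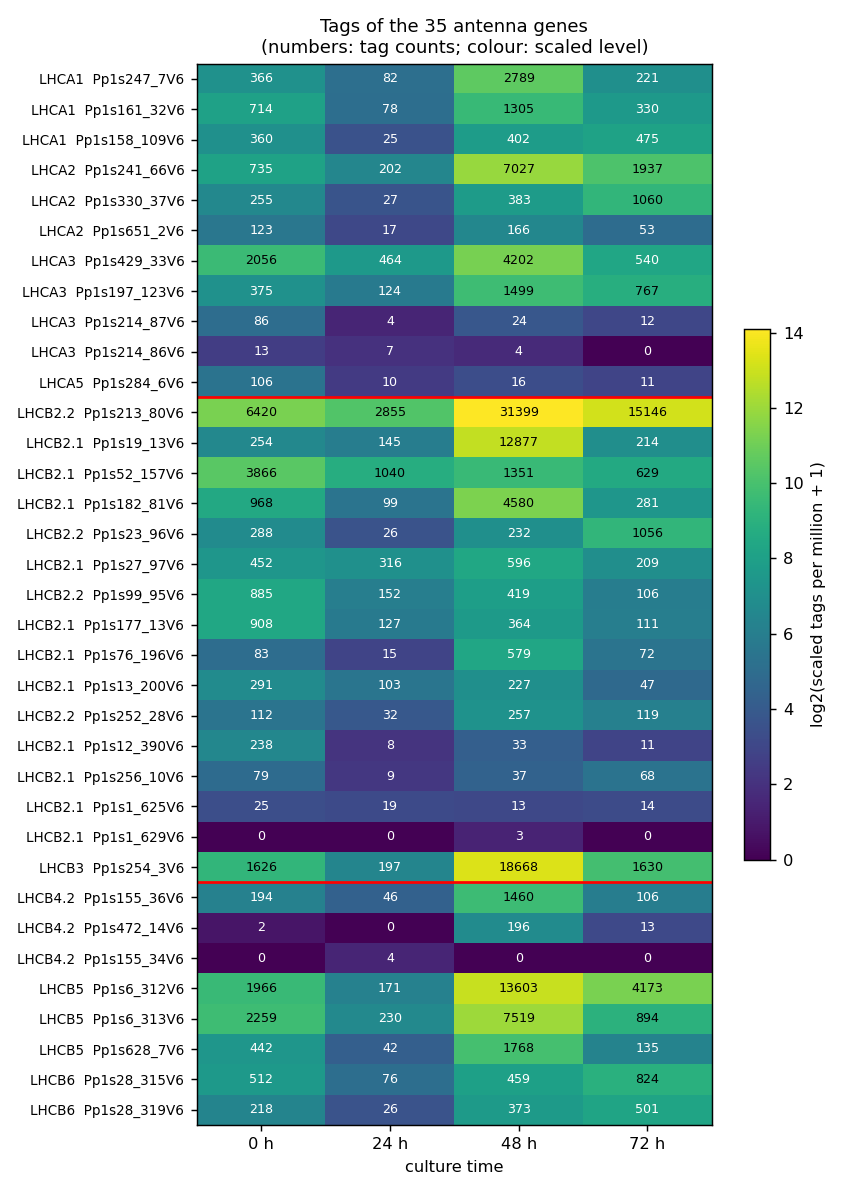
Tags of the 35 antenna genes (rows, with the symbol of the best Arabidopsis match and the moss gene ID) at 0, 24, 48 and 72 h of culture (columns). Numbers are tag counts, colour is the log2 of TMM-scaled tags per 1000000 plus 1, and red lines part the photosystem I antenna (top), the major LHCII (middle) and the minor photosystem II antenna (bottom). The 48 h column is the brightest for 19 of 33 members with at least 10 tags, and the 24 h column the darkest for 27.

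The antenna rested on a few genes. The 5 members with the most tags in each library held 60.7%, 72.4%, 73.2% and 75.4% of the antenna tags at 0, 24, 48 and 72 h. The leading member in all 4 libraries was Pp1s213_80V6, matched to LHCB2.2, a subunit of the LHCII trimers, with 6420, 2855, 31399 and 15146 tags at 0, 24, 48 and 72 h. It was the most abundant of all genes at 48 h, and held 23.5%, 42.1%, 27.3% and 47.7% of the antenna tags at the 4 time points. At 48 h, 3 further members stood among the 5 genes with the most tags, namely Pp1s254_3V6 (LHCB3), Pp1s6_312V6 (LHCB5) and Pp1s19_13V6 (LHCB2.1). Without Pp1s213_80V6 the antenna sum was 4.67-fold lower at 24 h than at 0 h (4.52 to 4.84), 27.7-fold higher at 48 h than at 24 h (26.8 to 28.6) and 4.75-fold lower at 72 h than at 48 h (4.67 to 4.83). At 72 h against 0 h the sum without this gene was 1.25-fold higher by TMM (1.22 to 1.27), and 1.37-fold lower over total gene tags.

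**Figure D2:**
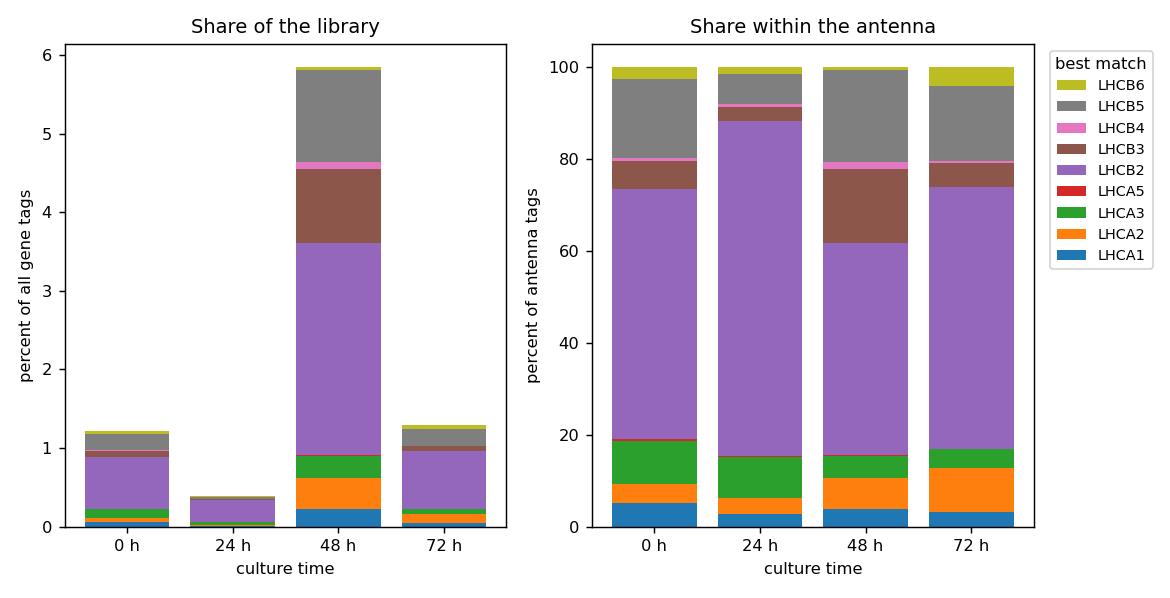
Antenna tags by the Arabidopsis family matched, as percent of all gene tags of each library (left) and as percent of the antenna tags (right), at 0, 24, 48 and 72 h. LHCB2 makes up the largest part of every bar, and the LHCB5 part of the right panel is smallest at 24 h.

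For single genes, a change was called when edgeR's exact test, run on the 2 libraries with a dispersion of 1e-09 that stands for counting error alone, gave a p and a Benjamini-Hochberg adjusted p of at most 0.01, the scaled ratio reached 4-fold and 100 or more tags lay in the higher of the 2 libraries. The test took in every gene with 10 or more tags in the pair of libraries. Rose and fell are used for called changes alone, and the 5 comparisons share libraries.

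In the first 24 h, in darkness, antenna transcripts fell in all 3 parts of the antenna. Of the 32 members tested, 16 were called lower in the 24 h library than in the 0 h library and 0 higher, against 4.94% lower and 2.44% higher of all 15077 genes tested. Among genes with 100 or more tags in the higher library, of which 27 are members, 13.5% were called lower and 6.67% higher. All 32 ratios were below 1, as were 52.4% of those of all genes, and the median log2 change was -2.60 for the members and -0.08 for all genes. With an assumed dispersion of 0.16 in place of counting error alone, 3 members stayed called lower, Pp1s12_390V6, Pp1s158_109V6 and Pp1s6_312V6.

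As a sum, the minor photosystem II antenna lost the largest part of its tags, most of which were those of LHCB5. Its sum was 595 tags at 24 h, against 5593 at 0 h, which is 8.27-fold lower (7.59 to 9.01), and 5 of its 6 members tested were called lower. The photosystem I antenna was 4.39-fold lower (4.10 to 4.69), with 5 of 11 members called, and the major LHCII 2.82-fold lower (2.73 to 2.91), with 6 of 15. The 3 intervals do not overlap, but they cover counting error only and not the spread between genes or cultures. The major LHCII sum was led by Pp1s213_80V6 and Pp1s52_157V6, which were 1.98-fold and 3.27-fold lower. The minor antenna accordingly held 8.78% of the antenna tags at 24 h, against 20.5% at 0 h, and the major LHCII 75.9%, against 60.5%. The order of the parts did not hold family by family. LHCB5, with 4667 of the 5593 minor antenna tags at 0 h, was 9.26-fold lower, LHCB6 6.29-fold and LHCB4 3.45-fold. In the major LHCII, LHCB3 was 7.26-fold lower and LHCB2 2.64-fold. In the photosystem I antenna, LHCA1, LHCA2, LHCA3 and LHCA5 were 6.84-fold, 3.98-fold, 3.71-fold and 9.32-fold lower.

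The largest fall of this step was that of an LHCB2.1 gene, Pp1s12_390V6, which had 8 tags at 24 h and 238 at 0 h. It was 26.2-fold lower (13.1 to 61.3), and with 33 and 11 tags at 48 and 72 h it remained a minor member. Pp1s158_109V6, matched to LHCA1, a protein of the belt around photosystem I, had 25 tags at 24 h, against 360 at 0 h, and was 12.7-fold lower (8.44 to 19.8). Pp1s6_312V6, matched to LHCB5, had 171 tags at 24 h, against 1966 at 0 h, and was 10.1-fold lower (8.64 to 11.9). These were also the members that stayed called with the larger dispersion.

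Several abundant members changed less. Pp1s213_80V6 was 1.98-fold lower at 24 h than at 0 h (1.89 to 2.07), and Pp1s429_33V6, the LHCA3 gene with the most tags, was 3.90-fold lower (3.52 to 4.32), both under the 4-fold needed for a call. The LHCB2.1 gene Pp1s27_97V6, named after its values were seen, had 316 tags at 24 h and 452 at 0 h, a ratio 1.26-fold lower (1.09 to 1.46).

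From 24 to 48 h, when the light cycle began, the antenna rose in all 3 parts. Of 33 members tested, 22 were called higher in the 48 h library than in the 24 h library and 0 lower, against 7.5% higher and 6.88% lower of all 14312 genes tested. Among genes with 100 or more tags in the higher library, 20.9% were called higher and 19.2% lower, and 27 such genes are members. The median log2 change was 3.84 for the members and -0.30 for all genes, and 31 of 33 ratios were above 1, compared with 44.9% over all genes. The same 22 members were called with a dispersion of 0.16.

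The 3 largest rises were those of 2 genes of the major LHCII and 1 of the minor photosystem II antenna. Pp1s254_3V6, the only gene matched to LHCB3, a subunit of part of the LHCII trimers, had 18668 tags at 48 h, against 197 at 24 h, and was 123-fold higher (107 to 143). Pp1s19_13V6, an LHCB2.1 gene with the KEGG number of LHCB1, had 12877 tags at 48 h and 145 at 24 h, which is 116-fold higher (98.1 to 137). Pp1s6_312V6 (LHCB5) had 13603 tags at 48 h and 171 at 24 h, and was 104-fold higher (89.1 to 121).

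By part, the minor antenna was 55.5-fold higher at 48 h than at 24 h (51.2 to 60.3), with all 7 members tested called higher. The photosystem I antenna was 22.3-fold higher (20.9 to 23.8), with 8 of 11 called, and the major LHCII 18.1-fold higher (17.6 to 18.7), with 7 of 15. The part that had been lowest in darkness relative to 0 h had the largest ratio. Both ratios share the 24 h counts, so the second partly restates the first. At 48 h against 0 h the parts lay closer together. The minor antenna was 6.72-fold higher (6.53 to 6.92), the major LHCII 6.43-fold (6.32 to 6.54) and the photosystem I antenna 5.08-fold (4.93 to 5.24). The LHCB4.2 gene Pp1s155_36V6 had 1460 tags at 48 h and 46 at 24 h, 41.3-fold higher (30.8 to 56.7). A second LHCB4.2 gene, Pp1s472_14V6, named after its values were seen, had 196 tags at 48 h and 0 at 24 h. It was 85.0-fold higher when the 24 h library is set to a floor of 3 tags, and the lower end of its exact interval was 68.5-fold.

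Among photosystem I antenna genes, Pp1s241_66V6 (LHCA2) was 45.3-fold higher at 48 h than at 24 h (39.4 to 52.3) and Pp1s247_7V6 (LHCA1) 44.3-fold higher (35.5 to 55.8). Pp1s429_33V6 (LHCA3) rose less, 11.8-fold (10.7 to 13.0). Of the 3 photosystem I antenna genes that were not called, Pp1s214_86V6 and Pp1s214_87V6 (both LHCA3) had fewer than 100 tags in every library. The third was Pp1s284_6V6, matched to LHCA5, a scarce antenna protein that in Arabidopsis helps to join photosystem I to the NDH complex. It fell in the first step, with 10 tags at 24 h and 106 at 0 h, and had 16 tags at 48 h, a ratio of 2.08-fold to 24 h (0.889 to 5.13). Its level at 48 h did not differ from that at 24 h beyond counting error, and it was called lower at 48 h than at 0 h, 4.48-fold (2.63 to 8.11).

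**Figure D3:**
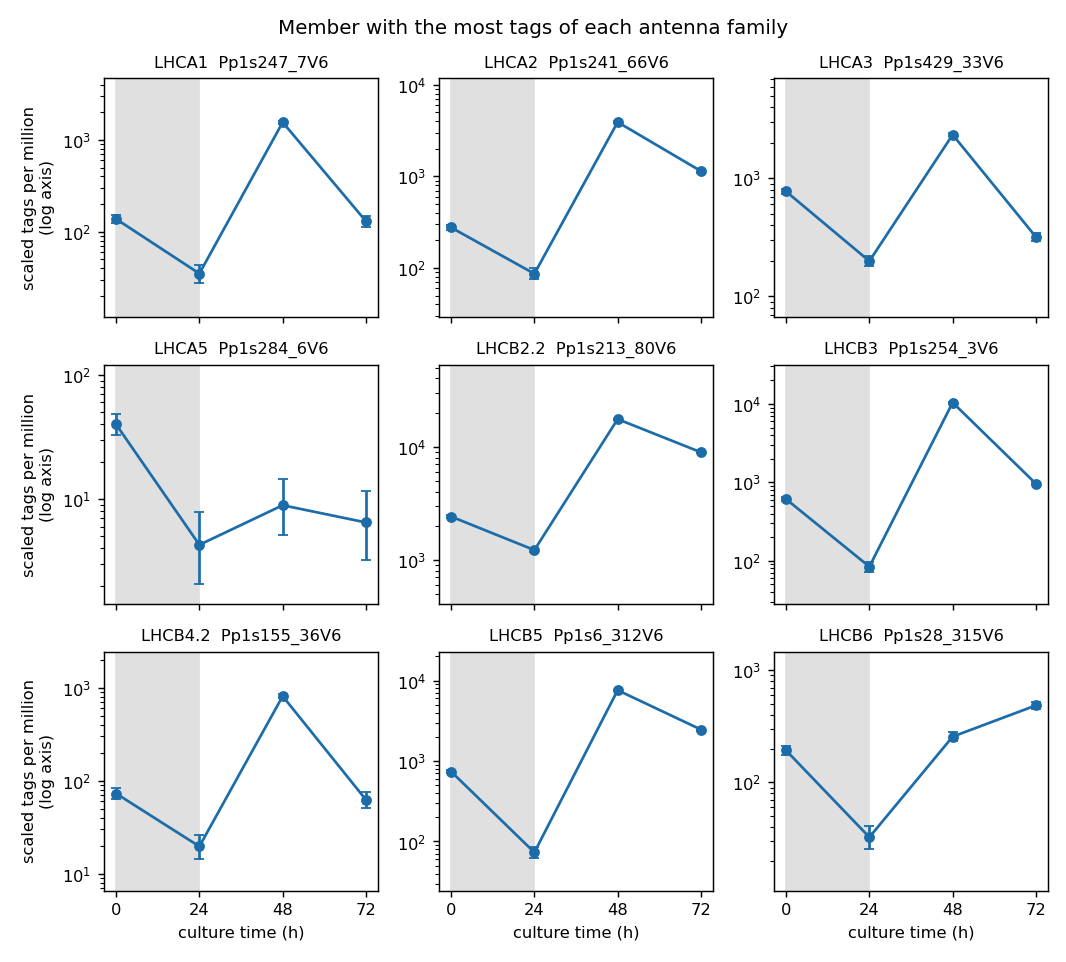
TMM-scaled tags per 1000000 (log axis) of the member with the most tags in each of 9 Arabidopsis families, against culture time in h, with 95% counting intervals as bars; grey marks culture in darkness. Of the 9 genes, 7 are highest at 48 h, Pp1s284_6V6 (LHCA5) is highest at 0 h and Pp1s28_315V6 (LHCB6) at 72 h.

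Genes matched to LHCB2 did not move alike. The 6 genes with the KEGG number K08912 had 18446 tags at 48 h, against 413 at 24 h, and their sum was 58.1-fold higher (52.7 to 64.2). The 4 genes with K08913 had 1987 tags at 48 h and 1365 at 24 h, a sum 1.89-fold higher (1.77 to 2.03). Only 2 of them had 100 or more tags in the higher library, and 0 were called. Of the K08912 genes, 4 had that many tags and 3 were called higher, beside 20.9% of all such genes. The K08913 sum was led by Pp1s52_157V6, with 1351 of the 1987 tags and a ratio of 1.69-fold. Pp1s27_97V6 was 2.46-fold higher, and Pp1s256_10V6, with 37 and 9 tags, 5.35-fold (2.54 to 12.6). Pp1s19_13V6 alone supplied 12877 of the 18446 tags, and without it the K08912 genes had 5569 tags at 48 h and 268 at 24 h, a sum 27.0-fold higher (23.9 to 30.7). These subgroups were formed after the values were seen. Within the K08913 genes, Pp1s52_157V6 was the second antenna gene at 0 h with 3866 tags, and had 1040, 1351 and 629 tags at 24, 48 and 72 h, so that its highest level was that of fresh protoplasts. The K08912 genes did not move together either, as Pp1s177_13V6 had 908, 127, 364 and 111 tags and Pp1s182_81V6 had 968, 99, 4580 and 281 tags at 0, 24, 48 and 72 h. Both were close in fresh protoplasts and differed by more than 10-fold at 48 h.

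From 48 to 72 h most antenna transcripts were lower, unevenly, and a few genes were higher. Of 32 members tested, 11 were called lower in the 72 h library than in the 48 h library, against 7.12% of all 12648 genes tested, and 1 was called higher, against 7.66%. Among genes with at least 100 tags in the higher library, 19.9% were called lower and 21.4% higher, and 27 such genes are members. The median log2 change was -1.59 for the members and 0.01 for all genes, and 25 of 32 ratios were below 1, compared with 49.7% over all genes. The sums of the 3 parts were 3.61-fold lower for the minor antenna (3.52 to 3.71), 3.44-fold lower for the major LHCII (3.38 to 3.49) and 3.12-fold lower for the photosystem I antenna (3.02 to 3.21).

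Single members within each part differed widely in this step, which the 3 sums do not show because they average over genes. Pp1s19_13V6 fell the most, with 214 tags at 72 h and 12877 at 48 h, 56.9-fold lower (49.7 to 65.5), against 254 at 0 h. Against 0 h its level at 72 h was 1.32-fold higher by TMM (1.09 to 1.59), a direction that turned with total gene tags or clean tags. Pp1s182_81V6 had 281 tags at 72 h and 4580 at 48 h, 15.4-fold lower (13.7 to 17.5), and Pp1s155_36V6 (LHCB4.2) had 106 and 1460, 13.0-fold lower (10.7 to 16.0). Pp1s254_3V6 (LHCB3) had 1630 and 18668 tags, 10.8-fold lower (10.3 to 11.4). In contrast, Pp1s213_80V6 was 1.96-fold lower at 72 h than at 48 h and Pp1s6_312V6 3.08-fold lower (2.98 to 3.19), neither of them called.

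The LHCB5 genes Pp1s6_312V6 and Pp1s6_313V6, which have consecutive IDs, separated over the last 2 consecutive comparisons. At 48 h against 24 h they were 104-fold (89.1 to 121) and 42.6-fold higher (37.3 to 48.7), and they moved further apart at 72 h. Pp1s6_313V6, named after its values were seen, had 2259, 230, 7519 and 894 tags at 0, 24, 48 and 72 h, and Pp1s6_312V6 had 1966, 171, 13603 and 4173. Nearly equal in fresh protoplasts, they differed by more than 4-fold at 72 h, when Pp1s6_313V6 was 7.96-fold lower than at 48 h (7.42 to 8.54).

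The gene called higher at 72 h was Pp1s23_96V6, an LHCB2.2 gene, with 1056 tags at 72 h, against 232 at 48 h, 4.81-fold higher (4.17 to 5.57). Over total gene tags it was 3.66-fold higher, and it was called neither with that scaling nor with a dispersion of 0.16. Pp1s330_37V6 (LHCA2) had 1060 tags at 72 h and 383 at 48 h, a ratio 2.93-fold higher (2.60 to 3.30), under the 4-fold needed. LHCB6, whose protein helps to bind outer LHCII trimers, was the only family with a higher sum at 72 h than at 48 h, with 1325 and 832 tags, 1.68-fold higher (1.54 to 1.84) and still 1.28-fold higher over total gene tags. Both of its genes took part in this, Pp1s28_315V6 with 824 tags at 72 h and 459 at 48 h and Pp1s28_319V6 with 501 and 373.

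Against fresh protoplasts, 13 of 33 members were called higher at 48 h and 2 lower, against 6.51% and 9.56% of all 14432 genes tested. Among genes with at least 100 tags in the higher library, 16.6% were called higher and 24.3% lower. The median log2 change was 1.34 for the members and -0.36 for all genes. The largest ratio of a gene with at least 100 tags in both libraries was that of Pp1s19_13V6, 75.1-fold higher at 48 h than at 0 h (66.3 to 85.3), followed by Pp1s254_3V6, 17.0-fold higher (16.2 to 17.9). The 2 genes called lower were Pp1s12_390V6 and the LHCA5 gene Pp1s284_6V6, and neither was called with a dispersion of 0.16.

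At 72 h the place of the antenna relative to fresh protoplasts depended on the scaling, and single members lay well above and below their 0 h levels. Of 33 members tested, 3 had a call for higher at 72 h against 0 h and 4 for lower, compared with 6.09% and 8.02% of all 14375 genes tested, and the median log2 change was -0.19 for the members and -0.34 for all genes. Over total gene tags these medians were -0.93 and -1.09, with 0 members called higher and 7 lower. By TMM, among genes with at least 100 tags in the higher library, of which 27 are members, 15.8% were called higher and 20.8% lower. Neither TMM count, 3 higher and 4 lower, stands above the shares among these well-counted genes. The genes called higher were Pp1s330_37V6 (LHCA2), 6.51-fold (5.67 to 7.49), Pp1s23_96V6 (LHCB2.2), 5.74-fold (5.03 to 6.56), and Pp1s241_66V6 (LHCA2), 4.12-fold (3.79 to 4.50). None of these 3 was called over total gene tags or with a dispersion of 0.16. Those called lower were Pp1s12_390V6 and Pp1s177_13V6 (LHCB2.1), Pp1s99_95V6 (LHCB2.2) and Pp1s284_6V6 (LHCA5), of which Pp1s12_390V6 was also called with a dispersion of 0.16. The direction of LHCB3 at 72 h against 0 h depended on the scaling, with 1.57-fold higher by TMM and 1.09-fold lower over total gene tags.

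**Figure D4:**
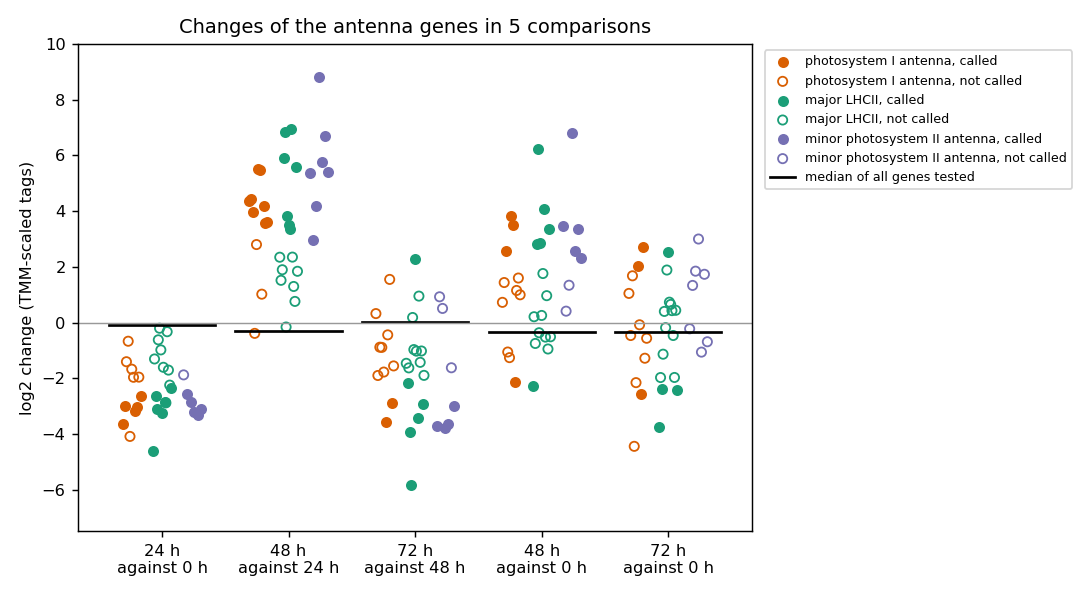
Log2 change of each antenna gene tested, later library over earlier library on TMM-scaled tags with a prior count of 0.5, in 5 comparisons that share libraries. Filled points are called genes, open points genes not called, and black bars the median of all genes tested. All points lie below 0 for 24 h against 0 h, and 31 of 33 lie above 0 for 48 h against 24 h.

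Further members are given after their values were seen. The LHCB5 gene Pp1s628_7V6 had 442, 42, 1768 and 135 tags at 0, 24, 48 and 72 h, and was called lower, higher and lower in the 3 consecutive comparisons. Pp1s76_196V6 (LHCB2.1) had 83, 15, 579 and 72 tags, and was 50.2-fold higher at 48 h than at 24 h (30.2 to 90.4). Pp1s161_32V6 (LHCA1) had 714, 78, 1305 and 330 tags, and Pp1s197_123V6 (LHCA3) 375, 124, 1499 and 767. Both were called higher at 48 h than at 24 h, and neither was called at 72 h against 48 h. Pp1s651_2V6 (LHCA2), with 123, 17, 166 and 53 tags, and Pp1s252_28V6 (LHCB2.2), with 112, 32, 257 and 119, rose at 48 h as well. The LHCB2.1 gene Pp1s13_200V6, with its lowest level at 72 h, had 291, 103, 227 and 47 tags and was called in the last step alone, 4.57-fold lower at 72 h than at 48 h (3.32 to 6.40), a call that was lost with a dispersion of 0.16.

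The remaining members were weakly counted. In every library, 6 of the 35 had fewer than 100 tags, among them the LHCA3 genes Pp1s214_87V6, with 86, 4, 24 and 12 tags at 0, 24, 48 and 72 h, and Pp1s214_86V6, with 13, 7, 4 and 0. Pp1s1_629V6 (LHCB2.1) had tags at 48 h alone, 3 of them, and Pp1s155_34V6 (LHCB4.2) at 24 h alone, 4 of them, which is too few for any comparison. In no consecutive comparison were 8 of the 35 members called, and 4 were called lower, higher and lower again in turn. The shares of all genes with these patterns of calls were not computed. Whether either count is unusual was therefore not tested.

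The photosystem core genes, to which the antenna is bound, moved with it up to 48 h. The lists of related genes were drawn from the annotation with earlier results of these data known. Of the photosystem I subunit genes, 7 of 23 were lower by this call at 24 h against 0 h and 0 higher, and 20 of 23 were higher at 48 h against 24 h and 0 lower, with median log2 changes of -1.32 and 4.44. Of the photosystem II subunit genes, 17 of 44 were called lower and 0 higher in the first step, and 28 of 45 higher and 0 lower in the next, with medians of -1.64 and 2.83. Over all genes tested, 4.94% were called lower and 2.44% higher in the first step, and 7.5% higher and 6.88% lower in the next. PSBX (Pp1s116_110V6), a small subunit of the photosystem II core, had 2110, 141, 10491 and 610 tags at 0, 24, 48 and 72 h, and PSBW (Pp1s185_110V6), another small subunit, 823, 105, 6087 and 1318. The gene of the photosystem II 5 kD protein, Pp1s259_76V6, had 1549, 114, 9486 and 2967 tags. All 3 fell and then rose in these steps. Antenna tags per photosystem II subunit tag were 1.66, 1.73, 2.18 and 2.51 at 0, 24, 48 and 72 h, and 1.27, 1.001, 1.58 and 1.31 without Pp1s213_80V6, so that the higher value at 72 h than at 48 h rested on that gene.

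At 72 h the antenna and photosystem I parted. Antenna tags per photosystem I subunit tag were 1.98, 1.69 and 1.97 at 0, 24 and 48 h, and 6.01 at 72 h, a ratio of sums within a library that no scaling between libraries changes. Without Pp1s213_80V6 the ratios were 1.51, 0.978, 1.43 and 3.15, smaller but again highest at 72 h. The photosystem I subunits had 5282 tags at 72 h and 58436 at 48 h, 10.5-fold lower (10.2 to 10.8), with 15 of 23 called lower and 0 higher. PSAF (Pp1s345_25V6), the docking subunit for plastocyanin, had 244 tags at 72 h and 5904 at 48 h. PSAH2 (Pp1s206_11V6), which lies where LHCII docks to photosystem I, had 770 and 10732, and PSAK (Pp1s5_384V6), which holds part of the LHCA belt, had 984 and 7685. All 3 fell by more than the antenna sum. For photosystem II, 13 of 45 subunit genes were lower by this call at 72 h against 48 h and 0 higher, and the sum was 3.94-fold lower (3.87 to 4.02). Over all genes tested in that comparison, 7.12% were called lower and 7.66% higher.

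**Figure D5:**
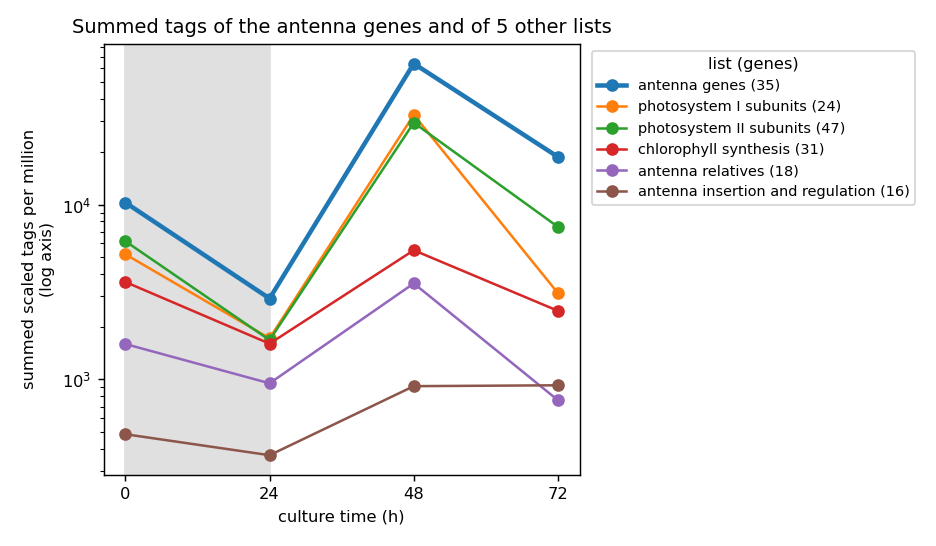
Summed TMM-scaled tags per 1000000 (log axis) of the 35 antenna genes and of 5 related lists, with the number of genes of each, against culture time in h; grey marks culture in darkness. The photosystem I subunits lie next to the photosystem II subunits up to 48 h and below them at 72 h, where there are 6.01 antenna tags per photosystem I subunit tag.

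Chlorophyll, without which antenna proteins are not stable, is made by enzymes whose summed transcripts changed less. Of the chlorophyll synthesis genes, 6 of 31 were called lower at 24 h against 0 h and 13 of 30 higher at 48 h against 24 h. Of all genes tested, 4.94% and 7.5% were so called. At 72 h against 48 h, 5 of 30 were called lower and 1 higher, beside 7.12% and 7.66% of all genes tested. Those 5 are among 21 with 100 or more tags in the higher library, close to the 19.9% of all such genes called lower. Their sum was 3.42-fold higher at 48 h than at 24 h (3.30 to 3.56), so that antenna tags per chlorophyll synthesis tag were 11.7 at 48 h, against 1.81 at 24 h, or 8.49 against 1.05 without Pp1s213_80V6. PORA (Pp1s108_171V6), matched to the light-dependent protochlorophyllide oxidoreductase, was also lowest at 24 h, with 814, 53, 623 and 429 tags at 0, 24, 48 and 72 h. CRD1 (Pp1s239_18V6), a subunit of the cyclase of the pathway, had 3307, 1216, 2252 and 1341 tags and was called in no comparison. HEMB1 (Pp1s219_94V6), matched to an early enzyme shared with haem synthesis, had 207 tags at 0 h and again at 24 h, and 1123 and 396 at 48 and 72 h.

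Relatives of the antenna proteins, among them proteins that protect against excess light, were called in both directions in the dark step. Among 16 such genes tested, 3 had a call for higher and 2 for lower at 24 h against 0 h, beside 2.44% and 4.94% of all genes tested. Of the relatives, 11 had 100 or more tags in the higher library, and of all such genes 6.67% were called higher and 13.5% lower. The 2 called lower do not set the list apart from that share. The antenna itself had 0 called higher in that step. The early light-induced protein genes matched to ELIP1, Pp1s371_45V6 and Pp1s196_69V6, had 127 and 391 tags at 24 h, against 0 and 2 in fresh protoplasts. Both rose in this dark step, the first 48.1-fold when its 0 h count is set to a floor of 3 tags. They had 1767 and 1164 tags at 48 h, and fell to 209 and 151 at 72 h. The NPQ4 gene Pp1s31_279V6, matched to the PsbS protein of heat dissipation, had 1579, 350, 1582 and 149 tags at 0, 24, 48 and 72 h, and was called higher at 48 h against 24 h and lower at 72 h against 48 h. At 72 h against 48 h, 6 of 17 relatives were called lower and 0 higher, beside 7.12% and 7.66% of all genes tested.

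Genes for inserting antenna proteins into the thylakoid and regulating them were mostly of low counts, and 7 of 16 had 100 or more tags in the higher library at 48 h against 24 h. In that step 3 of 16 were called higher and 0 lower, beside 7.5% and 6.88% of all genes tested. Of all genes with 100 or more tags in the higher library, 20.9% were called higher. At 24 h against 0 h, 1 of 16 was called lower and 0 higher, beside 4.94% and 2.44% of all genes tested. At 72 h against 48 h, 1 of 14 was called higher and 2 lower, beside 7.66% and 7.12%. Counts this small do not set the list apart from all genes in any consecutive comparison. ALB3 (Pp1s198_153V6), the insertase for antenna proteins, had 114, 129, 34 and 613 tags at 0, 24, 48 and 72 h. It thus had its lowest count when the antenna had its highest, and rose 19.1-fold (13.5 to 27.8) at 72 h against 48 h. ABA1 (Pp1s321_9V6), zeaxanthin epoxidase, had 276, 258, 91 and 78 tags and was called in no comparison. The ankyrin repeat gene Pp1s116_33V6 had 24, 25, 340 and 278 tags, and rose 17.7-fold (11.8 to 27.7) at 48 h against 24 h.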

How the data were processed

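Tag profiling libraries of 4 time points, 1 per time point, were analysed. The authors removed adaptor, low-quality and single-copy tags, mapped the rest with Bowtie to gene models allowing 1 mismatch, discarded tags shared by several genes, and deposited raw tag counts per gene. A second deposited column, headed TPM, equals tags per 100000 clean tags, and served only to recover the clean tags of each library. Columns of the Arabidopsis annotation came from the same files.

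Counts were scaled by TMM over the 4 libraries and tested with the exact test of edgeR 4.0.16 (R 4.3.3) over all genes, since no quasi-likelihood fit is possible without replicates. Alternatives were other library sizes (DESeq2 1.42.0 among them), dispersions and minimum counts. Python 3.11.15 with scipy 1.17.1, numpy 2.4.6, matplotlib 3.10.9 and pandas 2.3.3 served for tables and figures.

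The members and lists were chosen with earlier results of these data known. Named members are those with the most tags per family, those called against the majority, and the 3 largest rises and falls of each consecutive comparison among members with at least 100 tags in 1 library, ranked by the interval end nearest to 1. Of each related list the 3 genes with the most tags are named. A sterol acyltransferase and a phosphoserine aminotransferase, whose symbols resemble those of photosystem I, were left out of its list by their descriptions. Sequences and coordinates are not given, since the gene IDs matched none in the annotation table used.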

Additional observations from a re-analysis of the deposited data

How the results depend on the processing

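For the counts of calls, medians and summed shares of the 35 genes, 122 values were computed under other settings. Of these, 94 stayed within the limits set for a change and 28 moved. A count of calls was kept as unchanged up to 1.5 times. Thus 16 members called lower at 72 h against 48 h over total gene tags, against 11 by TMM, are among the 94, as are counts of 0 that stayed 0. Only medians could change sign, and 0 did. Directions of single genes and sums were less stable, since 10 members turned in 1 comparison each under another scaling, 5 of them at 72 h against 0 h, where 6 sums turned as well, among them those of LHCA1, LHCB3, the photosystem I antenna and the antenna without Pp1s213_80V6. With a dispersion of 0.16, 3 members were called lower at 24 h against 0 h (16 with counting error alone), 0 higher at 72 h against 48 h, 0 lower at 48 h against 0 h, and 0 higher and 1 lower at 72 h against 0 h. With total gene tags as library sizes, the median log2 change was 3.29 at 48 h against 24 h, 0.97 at 48 h against 0 h and -0.93 at 72 h against 0 h, 0 members were called higher at 72 h against 48 h, and 0 were called higher and 7 lower at 72 h against 0 h. With clean tags, these medians were 3.34, 0.92 and -0.84, and 1 member was called higher at 72 h against 0 h. The median over all genes itself moved, with total gene tags, by 0.17, -0.54 and -0.39 in the 3 consecutive comparisons and by -0.37 and -0.75 at 48 and 72 h against 0 h, and the members' medians moved with it. With no minimum of tags, the median at 48 h against 24 h was 3.62, through members of few tags. With a 2-fold limit, 2 members were called higher and 20 lower at 72 h against 48 h, and 9 higher and 9 lower at 72 h against 0 h. The summed antenna was 0.823%, 0.247%, 3.85% and 0.942% of the clean tags at 0, 24, 48 and 72 h, and without Pp1s213_80V6, an alternative chosen after seeing the data, 0.928%, 0.224%, 4.25% and 0.679% of the gene tags. TMM over the 0, 24 and 48 h libraries alone, also chosen after seeing the data, changed no call count by over 1.5 times. No paired analysis was possible because each time point has 1 library, and for the same reason no replicate could be left out. The spread between cultures was not measured, and a count of 0 allows up to 3 tags.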
